A study of Mus musculus with 9 samples.

Results

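Fosl2 overexpression was set directly against the group labelled as a Fosl2 knockout, in stimulated naive CD4+ T cells of the mouse. The comparison used 6 of the 9 RNA-seq libraries of the series, namely 3 Fosl2 Tg libraries and 3 libraries labelled Fosl2 KO. The 3 control libraries entered the estimate of spread, and their values stand beside the others for orientation. Of 23849 genes with an entry, 10340 had a mean of at least 1 FPKM over the 9 libraries and were tested. FPKM is a fragment count scaled to transcript length and to library size.

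Fosl2 Tg mice carried a transgene that the labels name only by its gene, without a promoter. The group labelled Fosl2 KO had the genotype Fosl2fl/fl CD4-cre+, in which Cre is driven by Cd4 regulatory sequence and cuts a floxed allele in T cells. Control mice were labelled wt, with no statement of a floxed allele or of Cre. The labels used here give no age or strain. In all 3 groups the cells were sorted as CD4+CD62LhighCD44low, the gate for naive cells, and then stimulated through the antigen receptor (anti-CD3) and its costimulator (anti-CD28) for 24 h. Whether each library is a different mouse is not stated; the p-values therefore measure only how far libraries spread, which may be technical. In these bulk samples, fewer cells of a type and less RNA per cell cannot be told apart.

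Fosl2 encodes Fra-2, a basic leucine zipper protein of the AP-1 family. Fra-2 pairs with Jun proteins, and the dimer binds TGA(C/G)TCA, called the AP-1 site or TRE. The wider pattern TGANTCA, which includes that site, was searched here. In T cells, AP-1 acts downstream of the antigen receptor together with NFAT, and Fosl2 is known as a regulator of Th17 and regulatory T cell (Treg) programmes.

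Estimated depth was 39.6, 49.9 and 56.9 M (mega) fragments in the Fosl2 Tg libraries, against 31.5, 43.0 and 56.5 M fragments in the libraries labelled Fosl2 KO. At this depth, 1 FPKM over 2 kb stands for about 79 to 114 fragments in Fosl2 Tg and 63 to 113 in libraries labelled Fosl2 KO. Both estimates assume that FPKM was scaled to the full transcript length. Without small RNA genes, libraries correlated at 0.986 to 0.998 within Fosl2 Tg, at 0.997 to 0.998 within the group labelled Fosl2 KO, and at 0.952 to 0.981 between them. Fosl2 Tg library 1 stood apart from the other Fosl2 Tg libraries, with a score of 35.9 on the main principal component against 15.7 and 16.6. The libraries labelled Fosl2 KO scored -15.2, -18.9 and -16.1, and control lay between the groups. Values without Fosl2 Tg library 1 are therefore given for genes in which it stood far above the others.

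**Figure D1:**
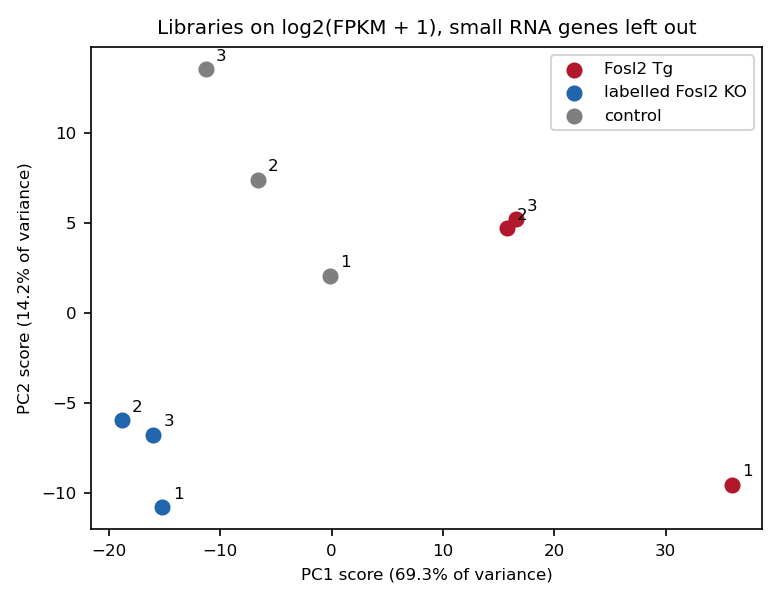
Scores of the 9 libraries on principal components 1 and 2 of log2(FPKM + 1) over 10157 genes, with small RNA genes left out (points, 1 per library, numbered by replicate). Fosl2 Tg lies to the right with library 1 farthest out at 35.9, the libraries labelled Fosl2 KO lie between -18.9 and -15.2, and control lies between -11.3 and -0.162.

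Fosl2 itself (chromosome 5, 32136472 to 32157839 in mm10) checked the labels. It had 30.9, 19.2 and 24.5 FPKM in the Fosl2 Tg libraries, against 19.2, 17.8 and 17.1 FPKM in the libraries labelled Fosl2 KO and a mean of 7.12 ± 0.856 FPKM in control (SD, n = 3). The lowest Fosl2 Tg library and the highest library labelled Fosl2 KO were equal at 3 digits, and the libraries labelled Fosl2 KO lay above control, which goes against their label. Since the value covers the whole gene, RNA without the floxed part would still be counted. The difference between Fosl2 Tg and libraries labelled Fosl2 KO was 0.42 ± 0.15 (log2, SE) and missed the threshold (limma adjusted p = 0.0594). It was 0.26 without Fosl2 Tg library 1 (limma adjusted p = 0.140). Leaving out Fosl2 Tg library 2 instead gave 0.58, which passed (limma adjusted p = 0.0129). It also passed at the same 0.42 without small RNA genes (limma adjusted p = 0.0439). With array weights it passed at 0.29 (limma adjusted p = 0.0265), but the estimate of those weights did not converge. The authors' deposited table gives 29.6 FPKM for Fosl2 Tg and 21.0 FPKM for the group labelled Fosl2 KO, with a q-value of 0.000503. The exact permutation test over 6 libraries gave p = 0.1, the smallest it can give for 3 against 3. What follows compares a transgenic group with a group of only slightly lower total Fosl2 FPKM, and no direction below can be read as presence against absence of Fosl2.

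Despite the small difference in Fosl2, the groups differed widely. Of the 10340 tested genes, 3943 passed the threshold, a limma adjusted p under 0.05, which is 38.1%. Higher and lower calls were of similar number: 1801 (17.4% of tested genes) had higher and 2142 (20.7%) had lower FPKM in Fosl2 Tg. Most differences were small, with a median size of 0.37 among the called genes on the log2(FPKM + 1) scale, and 165 genes were over 2-fold higher and 123 over 2-fold lower. Over 4-fold, 14 genes were higher and 25 were lower. The values of the groups did not overlap for 6241 genes, 60.4% of those tested. The median difference over all tested genes was -0.03. Counts within gene lists below are to be set beside the shares over all tested genes: 38.1% called, 17.4% higher and 20.7% lower. The lists were chosen with earlier results of these data known, so a gap from these shares describes a list and tests nothing.

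The count rested on the libraries labelled Fosl2 KO more than on the others. Without library 1, 2 or 3 of that group, 2578, 2170 and 2343 genes passed, against 3472 without Fosl2 Tg library 1. In all 9 fits that left out a library, 2004 of the called genes kept their call and direction (50.8%). Median-of-ratios scaling left 3939 calls but turned the split to 50.6% higher, against 45.7% in the FPKM as deposited. On the same tested genes, Fosl2 Tg against control called 2440 (23.6%), and libraries labelled Fosl2 KO against control called 461 (4.46%); both comparisons share the control libraries.

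**Figure D2:**
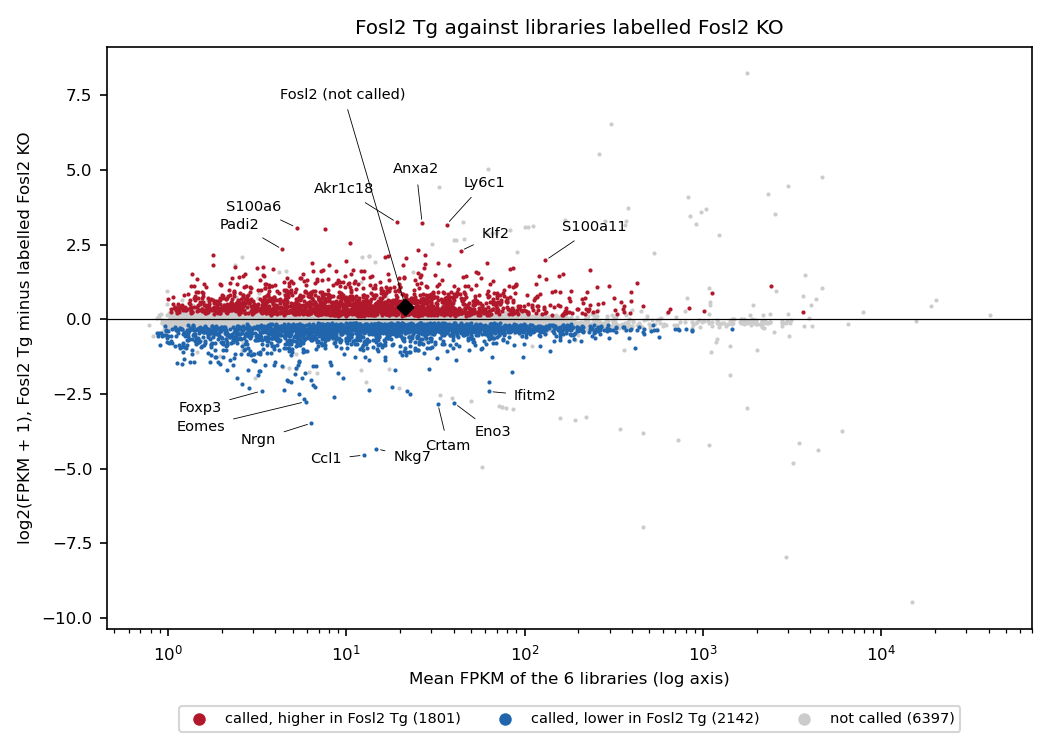
Difference in log2(FPKM + 1), Fosl2 Tg minus libraries labelled Fosl2 KO, against the mean FPKM of the 6 libraries on a log axis, for 10340 genes (points). The 1801 red and 2142 blue genes passed the threshold, Fosl2 did not, and all 56 grey genes with a difference over 2.5 in size are small RNA genes, none of which passed.

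Among genes higher in Fosl2 Tg, calcium-binding S100 and annexin genes stood near the top. Anxa2, which binds membranes in the presence of calcium and pairs with S100a10, had 51.4, 46.5 and 48.6 FPKM in Fosl2 Tg, against 3.71, 4.72 and 4.83 FPKM in libraries labelled Fosl2 KO. The groups lay far apart with little spread, and the difference was 3.21 ± 0.08 (log2, SE, limma adjusted p = 5.81e-07). Its partner S100a10 had 385, 329 and 342 FPKM in Fosl2 Tg, against 109, 108 and 115 FPKM in libraries labelled Fosl2 KO, a difference of 1.65 ± 0.07 (limma adjusted p = 3.35e-06). S100a11, another partner of annexins, had 221, 188 and 216 FPKM in Fosl2 Tg, against 49.7, 52.2 and 55.5 FPKM in libraries labelled Fosl2 KO, a difference of 1.97 ± 0.07. S100a6 had 13.9, 8.16 and 8.63 FPKM in Fosl2 Tg and 0.216, 0.286 and 0.424 FPKM in libraries labelled Fosl2 KO, a difference of 3.07 ± 0.17, or 2.85 without Fosl2 Tg library 1. Control lay between the groups for each, with means of 11.2 FPKM for Anxa2, 181 for S100a10, 66.9 for S100a11 and 0.463 for S100a6.

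The promoter windows of 2 of the 12 named higher genes with a RefSeq window held the AP-1 palindrome, and those sequences are shown because Fra-2 dimers bind this motif. The 250 bases before the RefSeq start sites follow, from GRCm38.p6, 5′ to 3′ on the plus strand, with TGANTCA in capitals. Anxa2 lies at chr9:69453433-69453682 with the motif 95 bases before the start site. S100a11 lies at chr3:93520246-93520495 with motifs 136 and 38 bases before it.
Anxa2: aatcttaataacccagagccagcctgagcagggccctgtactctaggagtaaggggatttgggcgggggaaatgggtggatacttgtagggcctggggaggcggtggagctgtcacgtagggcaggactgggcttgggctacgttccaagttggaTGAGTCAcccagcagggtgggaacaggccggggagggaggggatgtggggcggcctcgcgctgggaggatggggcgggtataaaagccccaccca
S100a11: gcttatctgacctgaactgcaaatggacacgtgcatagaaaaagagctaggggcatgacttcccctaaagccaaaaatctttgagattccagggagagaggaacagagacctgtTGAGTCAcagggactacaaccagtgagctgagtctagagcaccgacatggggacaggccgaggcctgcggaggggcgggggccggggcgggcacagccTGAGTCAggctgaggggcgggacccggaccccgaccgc

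All 3 motif copies read TGAGTCA. Both strands are covered by a search of 1 strand, because TGANTCA is its own reverse complement. In windows of 250 bases before to 50 after the start, TGANTCA stood in 318 of 7462 tested genes with a window (4.26%). The share was 6.06% of genes called higher (81 of 1336) and 4.29% of genes called lower (68 of 1586). It was 8.33% of genes over 2-fold higher (9 of 108) and 9.20% of genes over 2-fold lower (8 of 87), and 0 of the 11 named lower genes with a window held it. The related cyclic AMP response element TGACGTCA stood in 3.67% of all windows, 2.47% of those called higher and 3.72% of those called lower. The TGANTCA shares count a pattern wider than the TRE. A match describes letters in a window and is not a measured binding site.

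Over the whole list of S100, annexin and memory-type genes, 14 of 23 tested members were higher in Fosl2 Tg and 7 were lower, with a median difference of 0.60, against -0.03 over all tested genes. The list holds genes described above, such as Anxa2, and was chosen with earlier results of these data known. Its count and median are therefore description only. Its members were not uniform. Ahnak, a large scaffold that binds the Anxa2 and S100a10 complex, was higher at 1.89 ± 0.18, as were the galectin gene Lgals1 at 1.10 ± 0.06 and the annexins Anxa5, Anxa6, Anxa7 and Anxa11 by 0.24 to 0.67. The adhesion receptor Cd44, a classical mark of memory and effector cells, was lower at -1.10 ± 0.09, and so were Cxcr6, Anxa4, Vim and Itgb1. The call of Vim was lost without library 2 or 3 labelled Fosl2 KO, and that of Itgb1 without library 2. Cd44 had 11.99, 14.3 and 13.8 FPKM in Fosl2 Tg, against 26.5, 32.6 and 30.1 FPKM in libraries labelled Fosl2 KO. Ahnak and Cd44 are described outside the rule for named genes, after their values were seen, as are Tcf7, Il7r, Il2, Il2ra, Irf4, Irf8 and other list members given with a value below that the rule did not select.

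In the Ly6c genes, 1 Fosl2 Tg library was far above the others. Ly6c1, a surface protein of memory and activated T cells, had 157, 23.5 and 26.0 FPKM in Fosl2 Tg, against 3.42, 4.41 and 4.95 FPKM in libraries labelled Fosl2 KO. Its difference of 3.17 ± 0.63 (limma adjusted p = 0.00684) was 2.30 without Fosl2 Tg library 1, where it still passed. Its neighbour Ly6c2 had 43.6, 7.23 and 7.84 FPKM in Fosl2 Tg, against 1.5, 1.45 and 1.6 FPKM in libraries labelled Fosl2 KO, and 1.76 in place of 2.56 without that library. For both genes every Fosl2 Tg library lay above every library labelled Fosl2 KO. Ly6c1 and Ly6c2 are similar in sequence, and the counting could have split fragments between them. In all, 226 of the 1801 higher genes had over 1.5 times the FPKM of both other Fosl2 Tg libraries in library 1.

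Akr1c18, an enzyme that inactivates progesterone, led the higher genes. It had 29.6, 41.1 and 36.1 FPKM in Fosl2 Tg, against 3.13, 3.00 and 2.44 FPKM in libraries labelled Fosl2 KO and a mean of 7.75 FPKM in control, a difference of 3.24 ± 0.15 (limma adjusted p = 4.25e-06). Prss12, a secreted serine protease, had 17.4, 11.2 and 14.03 FPKM in Fosl2 Tg and 1.02, 0.762 and 0.764 FPKM in libraries labelled Fosl2 KO. The groups of both genes were well apart, though lack of overlap was a condition for choosing them. Padi2, which converts arginine residues of proteins to citrulline, averaged 8.02 ± 2.22 FPKM in Fosl2 Tg and 0.751 ± 0.130 FPKM in libraries labelled Fosl2 KO (SD, n = 3 each). The remaining higher genes by size were Cpne8, a calcium-dependent phospholipid-binding protein, at 2.14 ± 0.32, Pyhin1, an interferon-inducible nuclear protein, at 2.12 ± 0.26, the receptor gene Tnfrsf26 at 2.10 ± 0.29, and the ubiquitin ligase gene Neurl3 at 2.06 ± 0.26. Without Fosl2 Tg library 1, the differences were 1.80 for Pyhin1, 1.74 for Tnfrsf26 and 1.79 for Neurl3. H2-Q6, a nonclassical MHC class I gene, had 2.00, 4.89 and 3.86 FPKM in Fosl2 Tg and under 0.001 FPKM in each library labelled Fosl2 KO. It has near-identical relatives in the Q region, so its values are uncertain.

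Genes lower in Fosl2 Tg were led by the chemokine Ccl1 and by genes of cytotoxic cells. Ccl1, the ligand of Ccr8, had 0.292, 0 and 0.0497 FPKM in Fosl2 Tg, against 28.7, 21.6 and 24.8 FPKM in libraries labelled Fosl2 KO and a mean of 0.932 FPKM in control. Every library labelled Fosl2 KO lay far above every other library, and the difference was -4.55 ± 0.15 (limma adjusted p = 1.16e-06). The authors' deposited table gives Ccl1 a q-value of 0.153. Its receptor Ccr8 had 1.73, 2.09 and 1.25 FPKM in Fosl2 Tg, against 15.1, 14.6 and 16.6 FPKM in libraries labelled Fosl2 KO, a difference of -2.62 ± 0.11. Of the 4 chemokine genes tested, Xcl1, which attracts cross-presenting dendritic cells, and Ccl3 were also lower, at -2.49 ± 0.18 and -1.56 ± 0.17, and Ccl4 was not called at -0.43 ± 0.19, except without library 1 labelled Fosl2 KO. The median of these 4 genes, out of 11 chemokines listed, was -2.03. Ccl1 averaged under 1 FPKM in Fosl2 Tg and in control. It passed the filter only through the libraries labelled Fosl2 KO, so its direction in the list was set by the filter.

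Nkg7, a granule membrane protein needed for killing by cytotoxic cells, had the smallest adjusted p of the named genes. It had 0.600, 0.537 and 0.334 FPKM in Fosl2 Tg, against 29.0, 28.4 and 29.7 FPKM in libraries labelled Fosl2 KO and 3.79 ± 0.0701 FPKM in control (SD, n = 3). The 3 groups were fully apart, and the difference was -4.34 ± 0.07 (limma adjusted p = 2e-08). Eomes, the T-box transcription factor of cytotoxic and memory cells, had 0.894, 0.817 and 0.607 FPKM in Fosl2 Tg, against 10.5, 12.98 and 9.67 FPKM in libraries labelled Fosl2 KO (-2.76 ± 0.11). Ctsw, a protease of cytotoxic cells, and Crtam, an adhesion receptor that marks cytotoxic CD4+ T cells, were lower at -2.67 ± 0.13 and -2.83 ± 0.11. Of 13 tested Th1 and cytotoxic genes, 4 were higher and 7 were lower, with a median of -0.24. The pore-forming Prf1 was among the lower ones at -0.87 ± 0.12, whereas the granzyme gene Gzmb was higher, with 3.34, 3.98 and 6.23 FPKM in Fosl2 Tg and 0.783, 1.07 and 0.835 FPKM in libraries labelled Fosl2 KO. Klrd1, Cst7 and Fasl were higher as well, at 1.75, 0.76 and 0.57. Klrd1 differed by 1.23 without Fosl2 Tg library 1. Ifng and Tbx21, the Th1 cytokine and its regulator, stayed under the filter with at most 0.627 FPKM in these libraries.

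Markers of other cell types bear on these genes, since Nkg7, Eomes and Ctsw are also made by CD8+ T cells. Those 3 genes are also in the list of 5 CD8 T cell markers, whose sum ran from 13.4 to 14.3 FPKM in Fosl2 Tg and from 57.5 to 57.9 FPKM in libraries labelled Fosl2 KO, so its lower count and sum repeat their values. Only Cd8a and Cd8b1 add to them. The defining marker Cd8a lay under the filter, at 0.258, 0.199 and 0.229 FPKM in Fosl2 Tg and 0.212, 0.351 and 0.445 FPKM in libraries labelled Fosl2 KO. Cd8b1 was higher in Fosl2 Tg, at 0.73 ± 0.08. The part of CD8+ T cells in the result was not tested. Markers of natural killer and gamma delta T cells summed to at most 0.204 FPKM, with Ncr1 at 0 in each of the 6 libraries. Of 10 genes listed as CD4 T cell markers, 8 were higher in Fosl2 Tg and 1, Cd4, was lower at -0.22 ± 0.06. The call of Cd4 was lost without Fosl2 Tg library 3 or libraries 1 or 3 labelled Fosl2 KO. Most of the list, such as Cd3d, Lck and Cd28, is made by T cells in general, so the count does not measure CD4+ T cells. It fell to as few as 6 higher when 1 library was left out. The call of Cd247 was lost without library 1 or 2 labelled Fosl2 KO, and that of Zbtb7b without library 2. Cd4 had 164, 171 and 162 FPKM in Fosl2 Tg and 197, 187 and 197 FPKM in libraries labelled Fosl2 KO.

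Neurogranin (Nrgn), a calmodulin-binding protein best known from neurons, had 0.341, 0.153 and 0.147 FPKM in Fosl2 Tg, against 14.2, 11.97 and 11.4 FPKM in libraries labelled Fosl2 KO, a difference of -3.48 ± 0.11. Eno3, the muscle form of the glycolytic enzyme enolase, had 10.0, 9.35 and 8.63 FPKM in Fosl2 Tg, against 66.1, 74.8 and 72.6 FPKM in libraries labelled Fosl2 KO, a difference of -2.81 ± 0.08. Both genes had control means between the groups, 1.11 FPKM for Nrgn and 21.0 FPKM for Eno3. The activation marker Cd83 had 0.749, 0.998 and 0.966 FPKM in Fosl2 Tg, against 8.81, 11.4 and 9.43 FPKM in libraries labelled Fosl2 KO. Control, at 7.08 ± 0.779 FPKM, lay nearer to the libraries labelled Fosl2 KO. The other lower genes by size were Pkp4, a junction protein, at -2.41 ± 0.07, the secreted signal Wnt10b at -2.37 ± 0.21, Farp1, a guanine nucleotide exchange factor, at -2.37 ± 0.12, and Ifitm2, an interferon-induced membrane protein, at -2.42 ± 0.20.

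**Figure D3:**
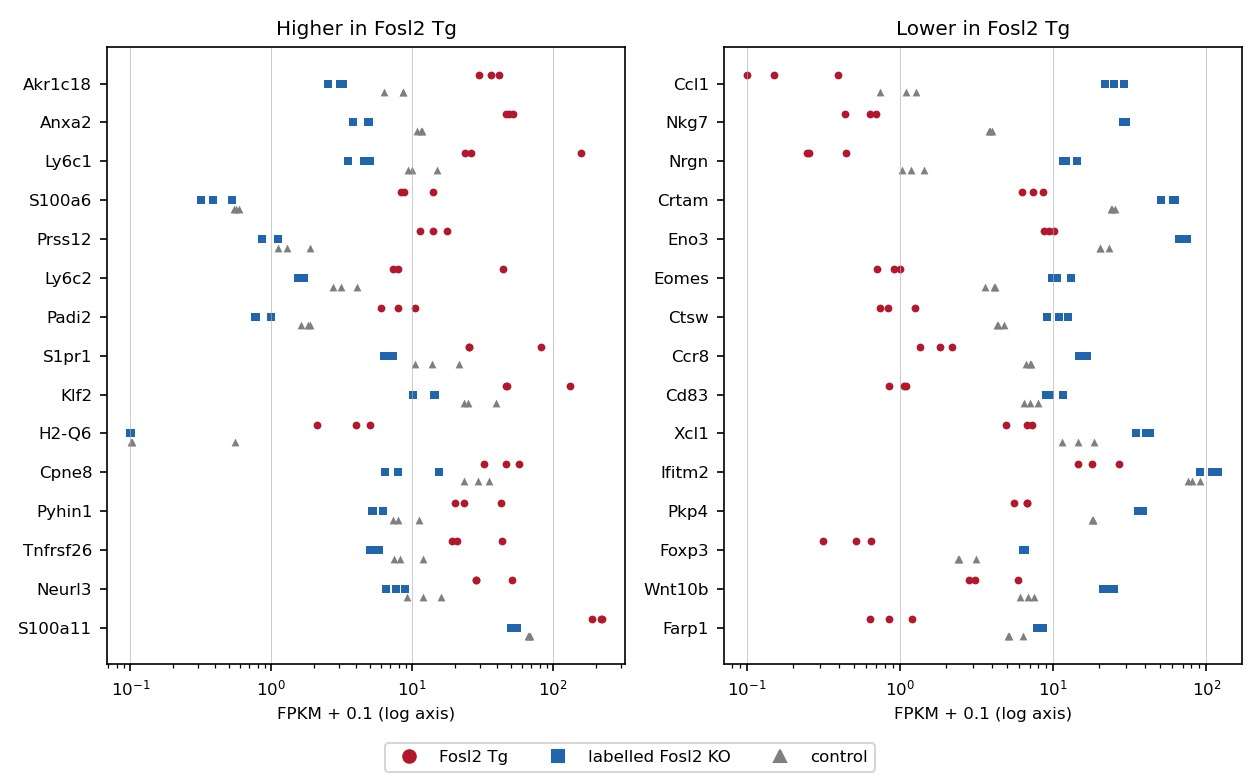
FPKM + 0.1 on a log axis in every library (points, with marker shape and colour by group) for the 15 higher and 15 lower genes with the largest differences. The genes were chosen among those whose groups do not overlap, and Ly6c1, Ly6c2, S1pr1 and Klf2 have 1 Fosl2 Tg library, number 1, well above the other Fosl2 Tg libraries.

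Foxp3, the transcription factor that defines Treg cells, lay on chromosome X (7579676 to 7595243 in mm10). It had 0.418, 0.540 and 0.215 FPKM in Fosl2 Tg, against 6.22, 6.23 and 6.48 FPKM in libraries labelled Fosl2 KO and 2.55 ± 0.422 FPKM in control (SD, n = 3). The groups were far apart, the difference was -2.40 ± 0.11 (limma adjusted p = 4.25e-06), and it was -2.42 without Fosl2 Tg library 1. The exact permutation test gave p = 0.1, the smallest possible. Fragments of genes that overlap Foxp3 could not be separated from it here, and the authors' deposited table lists Foxp3 in an entry shared with another gene.

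Of 15 tested Treg genes, 10 were lower in Fosl2 Tg and 4 were higher, with a median of -0.68. The lower members included receptors and regulators that Treg cells carry. Tnfrsf9 (4-1BB) had 66.1, 55.7 and 51.2 FPKM in Fosl2 Tg, against 145, 129.7 and 141 FPKM in libraries labelled Fosl2 KO, a difference of -1.25 ± 0.09. Il2ra, the high-affinity subunit of the IL-2 receptor, had 57.6, 81.2 and 77.5 FPKM in Fosl2 Tg, against 124, 129 and 127 FPKM in libraries labelled Fosl2 KO, a difference of -0.82 ± 0.12. Activated conventional T cells carry both. Ctla4 was lower at -0.86 ± 0.18, Lrrc32, which presents latent TGF-beta on Treg cells, at -0.91 ± 0.10, and Ikzf4 at -0.56 ± 0.10. Ikzf2 (Helios), a mark of thymic Treg cells, stayed under the filter, with 0.121 to 0.225 FPKM in Fosl2 Tg and 1.16 to 1.47 FPKM in libraries labelled Fosl2 KO. In the other direction, Nt5e (CD73), which makes adenosine, was higher at 1.73 ± 0.11, Capg at 1.15 ± 0.06, Rgs16 at 0.91 ± 0.09 and Izumo1r, the folate receptor 4 gene, at 0.72 ± 0.08. Gpr83 was not called at 0.07 ± 0.08.

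With all libraries, naive and quiescence genes had the highest median of the 27 pathway lists, 0.76. In this list 18 of 27 members were higher in Fosl2 Tg and 0 were lower. The median was not recomputed without Fosl2 Tg library 1. Klf2, which keeps T cells quiescent and drives their recirculation, had 131, 46.6 and 45.9 FPKM in Fosl2 Tg, against 14.1, 9.95 and 14.3 FPKM in libraries labelled Fosl2 KO, a difference of 2.29 ± 0.40 (limma adjusted p = 0.00395). S1pr1, the Klf2 target that guides exit from lymph nodes, had 81.2, 25.2 and 25.1 FPKM in Fosl2 Tg, against 7.15, 6.21 and 6.49 FPKM in libraries labelled Fosl2 KO. Library 1 was the highest for both genes, and without it the differences were 1.79 and 1.78, still past the threshold.

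Not every naive gene followed library 1. Igfbp4 had 89.8, 104 and 99.2 FPKM in Fosl2 Tg, against 27.0, 22.7 and 27.4 FPKM in libraries labelled Fosl2 KO, a difference of 1.89 ± 0.08. Id3, an inhibitor of E proteins, had 157, 164 and 151 FPKM in Fosl2 Tg, against 84.4, 89.6 and 87.7 FPKM in libraries labelled Fosl2 KO. Both had tight groups that did not overlap. Tcf7 and Lef1, the transcription factors of naive T cells, were higher at 1.09 ± 0.18 and 0.76 ± 0.13, or 0.85 and 0.59 without Fosl2 Tg library 1, and Il7r, the receptor for the survival cytokine IL-7, at 1.81 ± 0.52. Il7r had 71.8, 16.4 and 16.3 FPKM in Fosl2 Tg and 7.15, 7.12 and 6.65 FPKM in libraries labelled Fosl2 KO, so library 1 was again far above the others. Without it the difference was 1.12 and still passed (limma adjusted p = 0.0132), and the call was lost without any 1 library labelled Fosl2 KO. Foxo1, which maintains Klf2 and Il7r, was not called at 0.27 ± 0.12. Without Fosl2 Tg library 1, 18 members were also called, and over the 9 fits that left out a library the count ran from 12 to 19.

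Of 19 tested chemokine and homing receptors, 8 were higher and 3 were lower, with a median of 0.29. The higher ones included S1pr1, S1pr4 at 1.13 ± 0.26, or 0.79 without Fosl2 Tg library 1, and the lymph node homing receptor Ccr7, which had 406, 414 and 418 FPKM in Fosl2 Tg, against 269, 287 and 281 FPKM in libraries labelled Fosl2 KO. The integrin subunit Itgb7 was higher at 1.58 ± 0.17 and Ccr4 at 0.81 ± 0.08. Ccr8, Cxcr6 at -1.28 ± 0.11 and Itgb1 were lower.

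Of 13 tested cytokine genes, 8 were higher in Fosl2 Tg and 3 lower, with a median of 0.29. Ltb, the membrane anchor of lymphotoxin, had 297, 218 and 219 FPKM in Fosl2 Tg, against 85.0, 84.1 and 85.0 FPKM in libraries labelled Fosl2 KO, a difference of 1.505 ± 0.12. Tnf and Lta were higher at 0.59 ± 0.09 and 0.55 ± 0.11. Il2, the growth factor of activated T cells, was lower, with 48.3, 77.0 and 62.1 FPKM in Fosl2 Tg, against 107.9, 113 and 117 FPKM in libraries labelled Fosl2 KO, and a mean of 159.7 FPKM in control. Tnfsf14 (LIGHT) and Tnfsf11 (RANKL) were lower at -1.20 ± 0.11 and -0.89 ± 0.20. The cytokines of differentiated subsets, such as Il4, Il13, Il17a, Il21 and Ifng, were all under the filter.

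The IL-2 and STAT5 response list had 7 of 21 tested members higher, 5 lower and a median of 0.05. In all, 57.1% were called, against 38.1% over all tested genes. Pim1, a kinase gene induced by STAT5, had 129, 124 and 128 FPKM in Fosl2 Tg, against 33.7, 42.5 and 41.2 FPKM in libraries labelled Fosl2 KO, a difference of 1.68 ± 0.09 (limma adjusted p = 6.58e-06). The feedback inhibitors Cish, Socs1 and Socs3 were higher by 0.56 to 0.83, and the survival gene Bcl2 at 1.05 ± 0.11. The call of Socs3 was lost without any 1 library labelled Fosl2 KO. Il2ra, Myc at -0.49 ± 0.07, Stat5a at -0.62 ± 0.06 and Bcl2l1, which encodes Bcl-xL, at -0.59 ± 0.11 were lower.

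**Figure D4:**
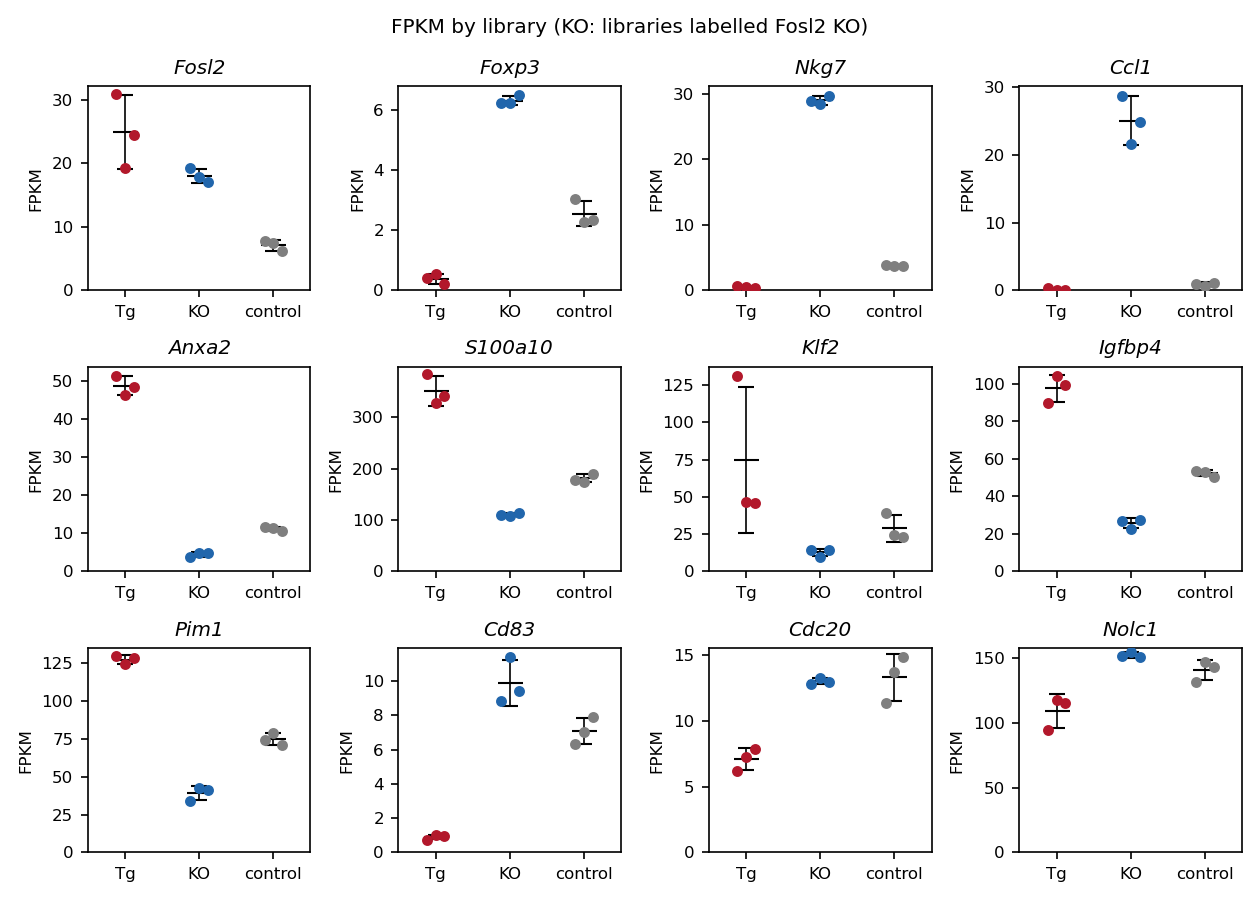
FPKM by library (points) with mean and SD (bars, n = 3) for 12 genes in Fosl2 Tg, libraries labelled Fosl2 KO and control, each axis starting at 0. Fosl2 lies above control in both other groups, Foxp3, Nkg7, Ccl1 and Cd83 are near 0 in Fosl2 Tg, and Anxa2, S100a10, Igfbp4 and Pim1 have their highest values in Fosl2 Tg with control between the groups.

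Genes of the antigen receptor response went both ways. Of 21 tested activation and costimulation genes, 8 were higher and 9 were lower, with a median of 0.02; 5 were higher without Fosl2 Tg library 2, without Fosl2 Tg library 3 or without library 3 labelled Fosl2 KO, and 4 without library 2 labelled Fosl2 KO. Irf4, a transcription factor graded by receptor strength, was higher, with 198, 256 and 269 FPKM in Fosl2 Tg, against 123, 118 and 131 FPKM in libraries labelled Fosl2 KO. Its relative Irf8 was lower, with 11.4, 15.8 and 13.5 FPKM in Fosl2 Tg, against 40.2, 46.2 and 46.9 FPKM in libraries labelled Fosl2 KO. The groups of both genes were apart. The costimulatory receptors Cd2 and Cd28 were higher at 1.10 ± 0.06 and 0.70 ± 0.05, and Plk2 was lower at -2.28 ± 0.09.

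NR4A, EGR and NFAT genes report calcium and kinase signals from the receptor, and 7 of 18 tested were higher and 7 lower, with a median of -0.08. Without library 2 labelled Fosl2 KO, 4 were higher. All 3 NR4A receptors were lower. Nr4a2 had 6.83, 5.10 and 4.69 FPKM in Fosl2 Tg, against 32.0, 30.9 and 28.3 FPKM in libraries labelled Fosl2 KO (-2.28 ± 0.11), while Nr4a3 differed by -0.996 ± 0.14 and Nr4a1 by -0.71 ± 0.19. Egr3 was lower at -0.80 ± 0.13 and Egr2 was higher at 0.37 ± 0.08. The call of Nr4a1 was lost without library 1 or 2 labelled Fosl2 KO, and that of Egr2 without library 2. The phosphatase gene Dusp4 was lower at -1.71 ± 0.12, while Dusp5 was higher at 0.90 ± 0.07, and Rcan1, a calcineurin inhibitor induced by NFAT, was lower at -0.97 ± 0.06.

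Co-inhibitory receptors, which restrain activated T cells, had a median of -0.58, with 6 of 11 tested lower in Fosl2 Tg and 1 higher. Cd160 had 2.40, 2.00 and 1.70 FPKM in Fosl2 Tg, against 9.37, 7.71 and 8.24 FPKM in libraries labelled Fosl2 KO, a difference of -1.64 ± 0.10. Pdcd1lg2 was lower at -0.95 ± 0.07, Tigit at -0.72 ± 0.18 and Lag3 at -0.62 ± 0.12, and the call of Tigit was lost without library 2 or 3 labelled Fosl2 KO. The higher member, Cd274 (PD-L1), was not called without Fosl2 Tg library 1 or 2 or without library 2 or 3 labelled Fosl2 KO, and 2 members were higher without Fosl2 Tg library 3. Pdcd1 was not called.

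Fosl2's own family showed little difference. Of 16 tested AP-1 genes, 2 were higher and 1 was lower, 18.8%, against the 38.1% called over all tested genes. Jun, a partner of Fra-2, had 2.43, 2.35 and 2.28 FPKM in Fosl2 Tg, against 3.86, 4.61 and 4.73 FPKM in libraries labelled Fosl2 KO, a difference of -0.68 ± 0.08. Junb, Jund, Batf, Fos and Fosb were not called, at -0.20 to -0.11. Without Fosl2 Tg library 1, Fos and Junb passed at -0.36 and -0.14. Fosl1, the closest relative of Fosl2, was higher at 0.28 ± 0.09 (limma adjusted p = 0.0456), with 1.84, 2.30 and 1.63 FPKM in Fosl2 Tg and 1.41, 1.34 and 1.43 FPKM in libraries labelled Fosl2 KO. That call was lost on leaving out any library other than control library 3 or Fosl2 Tg library 3. Mafg, a small Maf protein, lost its call at 0.26 ± 0.07 without library 2 or 3 labelled Fosl2 KO. Without Fosl2 Tg library 1, 3 family members were lower, and without library 1 labelled Fosl2 KO, 2 were.

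Other helper subset lists were short. Of 6 Th2 genes, Ccr4 was higher and Ccr8 and Nfil3 were lower, while the Th2 regulator Gata3 was called only without Fosl2 Tg library 1, and differed by -0.15 ± 0.07 with it. Of 3 Th17 genes tested, 1 was higher and 2 were lower. Ahr was lower at -0.71 ± 0.09, and Stat3 was lower at -0.21 ± 0.06, a call lost without Fosl2 Tg library 2 or any library labelled Fosl2 KO. The authors' deposited table gives Stat3 a q-value of 0.259. Of 10 follicular helper genes, Sh2d1a was higher and Slamf6, Tox and Pou2af1 were lower (40.0% called, near the 38.1% over all tested genes), with a median of -0.01. The higher count was 2 on leaving out Fosl2 Tg library 1, Fosl2 Tg library 3 or control library 3.

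Of 30 mitosis genes, 29 were lower in Fosl2 Tg and 0 higher, with a median of -0.66. Cdc20, the activator of the anaphase-promoting complex, had 6.16, 7.28 and 7.84 FPKM in Fosl2 Tg, against 12.8, 13.3 and 12.9 FPKM in libraries labelled Fosl2 KO, a difference of -0.80 ± 0.10 (limma adjusted p = 0.00093). Foxm1, the transcription factor of mitotic genes, had 3.55, 3.84 and 4.45 FPKM in Fosl2 Tg, against 6.37, 8.82 and 7.40 FPKM in libraries labelled Fosl2 KO. The groups of both genes were apart, and control lay at 13.3 FPKM for Cdc20 and 8.44 FPKM for Foxm1. Without library 2 labelled Fosl2 KO, 19 mitosis genes passed, and 26 passed without Fosl2 Tg library 1. Of 35 DNA replication genes, 22 were lower and 0 higher, with a median of -0.46, among them Mcm10 at -0.84 ± 0.15, Tyms at -0.70 ± 0.15 and Cdt1 at -0.42 ± 0.09. This count was 14 without library 1 labelled Fosl2 KO and 5 without library 2 or without library 3, and 12 with control left out of the fit. It was 17 without Fosl2 Tg library 1. All 35 had a difference below 0, whether or not they passed.

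Among G1 genes, 3 of 14 were higher and 4 lower. The inhibitors Cdkn1b (p27) at 0.80 ± 0.26 and Cdkn2d at 0.79 ± 0.16 were higher with the pocket protein gene Rbl2, while Cdkn2c, Cdk4, Cdk2 and E2f4 were lower. Without Fosl2 Tg library 1 the differences were 0.44 for Cdkn1b and 0.58 for Cdkn2d. Cdkn1b no longer passed when a single library of the group labelled Fosl2 KO or of control was left out. Lost too were the calls of Cdk2 without library 2 or 3 labelled Fosl2 KO, and of E2f4 without Fosl2 Tg library 1 or any 1 library labelled Fosl2 KO. Cdk4 had 179.96, 226 and 228 FPKM in Fosl2 Tg, against 273, 285 and 279 FPKM in libraries labelled Fosl2 KO. Its call was lost without library 2 labelled Fosl2 KO, where 1 G1 gene was lower, and 2 were lower without library 3.

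Of 28 ribosome biogenesis genes, 23 were lower in Fosl2 Tg and 0 higher, with a median of -0.30. Nolc1, a nucleolar chaperone, had 94.2, 118 and 115 FPKM in Fosl2 Tg, against 152, 155 and 151 FPKM in libraries labelled Fosl2 KO, a difference of -0.49 ± 0.09. Without library 1, 2 or 3 labelled Fosl2 KO, 5, 7 and 8 of these genes passed, and 15 passed without control library 2 or with control left out of the fit. Without Fosl2 Tg library 1, 17 passed, and Nolc1 differed by -0.38. The authors' deposited table gives Nolc1 130 FPKM for Fosl2 Tg and 178 FPKM for the group labelled Fosl2 KO. Its log2 fold there is 0, which does not match those values, and the gene is not significant in that table. Of 25 glycolysis and lactate genes, 13 were lower and 1 higher, with a median of -0.20. Slc16a3, a lactate exporter, was lower at -1.44 ± 0.06, with 2.24, 2.66 and 2.49 FPKM in Fosl2 Tg and 8.26, 8.05 and 8.93 FPKM in libraries labelled Fosl2 KO. Tpi1 and Hk2 were lower at -0.70 ± 0.14 and -0.61 ± 0.13, and Egln3, an oxygen sensor, was higher at 1.22 ± 0.12. Without library 1, 2 or 3 labelled Fosl2 KO, 7, 8 and 7 were lower. Without Fosl2 Tg library 1, 10 were lower and 3 were higher, and Hk2 differed by -0.44.

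Of 24 cholesterol synthesis genes, 13 were lower and 0 higher (54.2% called, against 38.1% over all tested genes), with a median of -0.25. Without library 1 or 2 labelled Fosl2 KO, 7 and 6 were lower, and 11 were lower without Fosl2 Tg library 1. Hmgcs1, an early enzyme of the pathway, was lower at -0.54 ± 0.08. Amino acid transport and ATF4 target genes had 11 of 20 lower and 3 higher, with a median of -0.27. Without Fosl2 Tg library 1, 9 were lower and 2 were higher. Asns, asparagine synthetase, had 1.75, 2.92 and 2.13 FPKM in Fosl2 Tg, against 4.37, 6.67 and 5.70 FPKM in libraries labelled Fosl2 KO, and Shmt2, a mitochondrial enzyme of serine metabolism, was lower at -0.52 ± 0.09. Of 20 heat shock and unfolded protein response genes, 3 were higher and 5 lower (40.0% called, near the 38.1% over all tested genes), with a median of -0.11. The lower count was 3 without Fosl2 Tg library 1 or control library 2, and 2, 1 and 1 without libraries 1, 2 and 3 labelled Fosl2 KO, and the call of Hspd1 at -0.60 ± 0.15 was lost without library 2 or 3. Fosl2 Tg library 1 had the lowest FPKM of all 6 libraries for Nolc1, Cdc20, Hk2 and Hspd1. Without that library, Cdc20 differed by -0.71 and Hspd1 by -0.42.

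**Figure D5:**
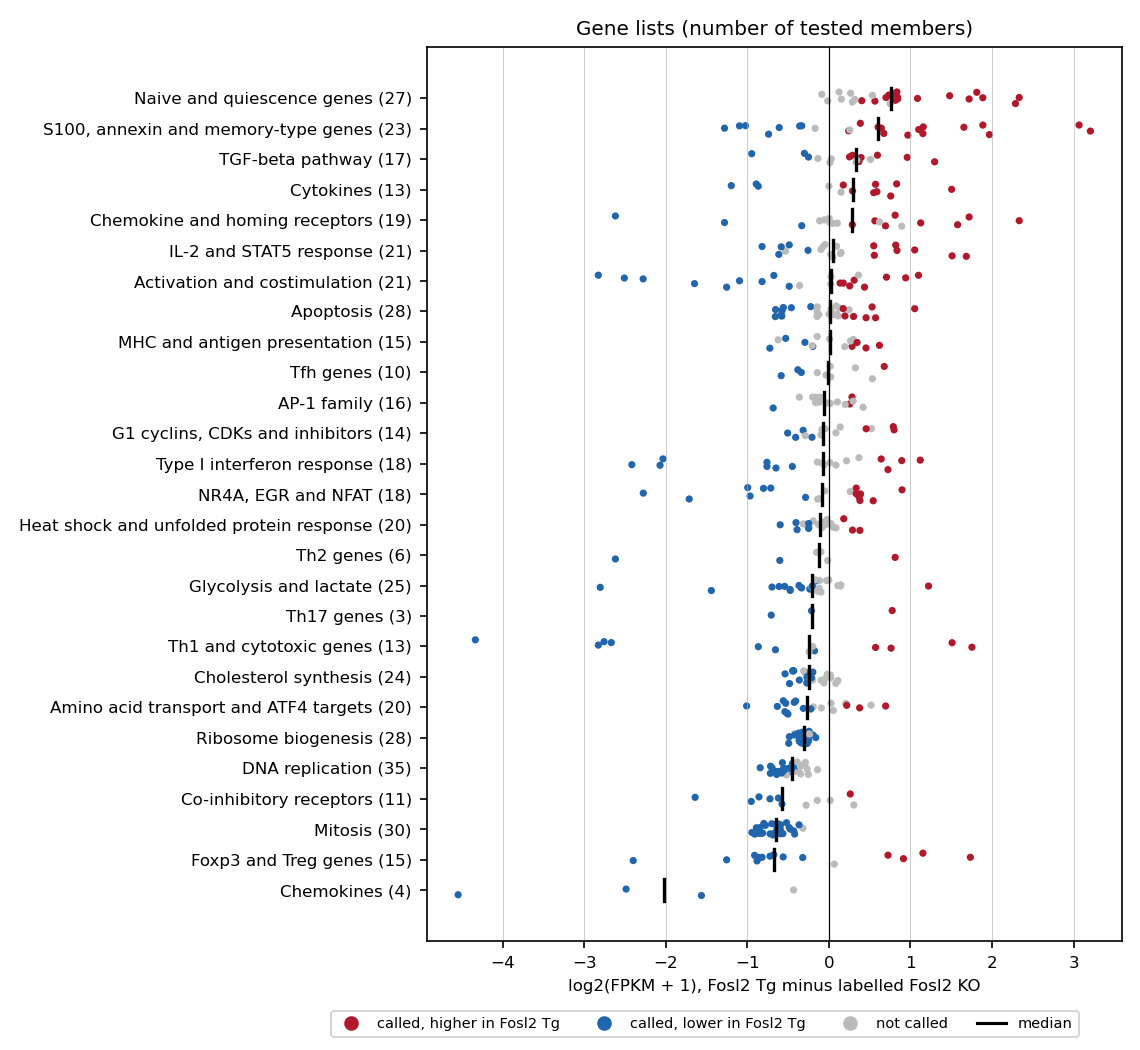
Differences in log2(FPKM + 1), Fosl2 Tg minus libraries labelled Fosl2 KO, of the tested members (points) of 27 gene lists, with the list median as a black bar and the number tested in brackets. Medians run from 0.76 for naive and quiescence genes to -2.03 for the 4 tested chemokines. Of those 4, Ccl1 passed the filter only through the libraries labelled Fosl2 KO. Most called mitosis, DNA replication and ribosome biogenesis genes lie between -1 and 0.

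TGF-beta signalling, which induces Foxp3 in naive cells, had 7 of 17 tested genes higher, 3 lower and a median of 0.33. Its transducer Smad3 had 10.3, 7.91 and 8.50 FPKM in Fosl2 Tg, against 4.19, 3.95 and 4.08 FPKM in libraries labelled Fosl2 KO, a difference of 0.96 ± 0.11. The receptor gene Tgfbr1 was higher at 0.59 ± 0.07 and the inhibitor Smad7 at 1.30 ± 0.26, or 0.95 without Fosl2 Tg library 1, while the coreceptor gene Tgfbr3 was lower at -0.95 ± 0.09. The groups of Smad3 did not overlap.

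Type I interferon response genes had 4 of 18 higher, 7 lower and a median of -0.07. Ifih1 (MDA5), a sensor of double-stranded RNA, had 1.45, 1.16 and 1.05 FPKM in Fosl2 Tg, against 9.06, 8.44 and 6.85 FPKM in libraries labelled Fosl2 KO (-2.04 ± 0.10). Oas3 was higher, with 2.63, 2.08 and 2.17 FPKM in Fosl2 Tg and 0.409, 0.505 and 0.630 FPKM in libraries labelled Fosl2 KO. Ifitm3 was lower at -2.07 ± 0.18.

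MHC and antigen presentation genes had 4 of 15 higher and 4 lower (53.3% called, against 38.1% over all tested genes), with a median of 0.01. Without Fosl2 Tg library 3 or library 1 or 2 labelled Fosl2 KO, 2 were lower. H2-T23 was higher at 0.62 ± 0.09, while Cd74, the invariant chain also used as a B cell marker, was lower at -0.72 ± 0.10. Apoptosis genes had 7 of 28 higher and 8 lower (53.6% called, against the same 38.1%), with a median of 0.01. Without library 2 labelled Fosl2 KO, 5 were lower. Bcl2 and the death-promoting Bcl2l11 (Bim) at 0.53 ± 0.06 were higher, and Pmaip1 (Noxa) at -0.66 ± 0.10 was lower.

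The B cell markers summed to 7.49 to 8.94 FPKM in Fosl2 Tg and 12.9 to 13.7 FPKM in libraries labelled Fosl2 KO, most of it from Cd74, which was lower. The defining B cell marker Ms4a1 was at 0 in all Fosl2 Tg libraries and at most at 0.0117 FPKM in libraries labelled Fosl2 KO. The myeloid markers summed to 2.45 to 4.12 FPKM in Fosl2 Tg and 0.991 to 1.56 FPKM in libraries labelled Fosl2 KO, with Cd14 at 0 in all 6. Of these, Cd68 was higher at 0.56 ± 0.15, a call lost without library 2 or 3 labelled Fosl2 KO, and their part in the results was not tested. The stromal markers summed to 24.3 to 38.1 FPKM in Fosl2 Tg and 13.02 to 13.6 FPKM in libraries labelled Fosl2 KO, most of it from Pecam1. Pecam1 was higher at 1.05 ± 0.20, or 0.81 without Fosl2 Tg library 1, and Epcam at 0.79 ± 0.10, while Col3a1 and Pdgfra were at 0 in all 6 libraries. Red cell markers summed to at most 0.522 FPKM.

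Genes that neighbour Fosl2 on chromosome 5 were counted by distance. Within 10 Mb of Fosl2, 55 of 121 tested genes were called (45.5%), against 38.1% over all tested genes. The share was 42.9% within 5 Mb (33 of 77) and 45.5% within 20 Mb (65 of 143). Add1, which encodes adducin, a cytoskeletal protein, lay 2.42 Mb away and averaged 74.5 ± 18.9 FPKM in Fosl2 Tg and 32.2 ± 0.0833 FPKM in libraries labelled Fosl2 KO (SD, n = 3 each). Its control mean was 43.2 FPKM. Actr3b, 6.29 Mb away, averaged 0.479 ± 0.0657 FPKM in Fosl2 Tg and 3.78 ± 0.416 FPKM in libraries labelled Fosl2 KO, and 0.630 FPKM in control. Srpk2 and Galnt11 also had Fosl2 Tg near control. Srpk2 averaged 10.6 FPKM in Fosl2 Tg, 17.7 in libraries labelled Fosl2 KO and 9.77 in control, and Galnt11 5.69, 13.8 and 4.71. For Cad, control at 79.0 FPKM lay between Fosl2 Tg at 62.2 and libraries labelled Fosl2 KO at 90.0.

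The calls were spread over expression levels. Among genes with a mean of 1 to 3 FPKM 37.8% were called, and from 3 to 10 FPKM 38.9%. The share was 36.8% from 10 to 30 FPKM, 41.3% from 30 to 100 FPKM and 33.2% from 100 FPKM up. In that highest class 187 genes were lower and 90 were higher, and from 30 to 100 FPKM 543 were lower and 310 higher. From 3 to 10 FPKM, 537 were lower and 552 higher. The authors' deposited table marks 3509 entries as significant between the same groups, 1937 with higher and 1572 with lower FPKM in Fosl2 Tg. Among them, 2888 matched 1 tested gene, and 2504 were called in the same direction by limma (86.7%), with 0 called in the opposite direction. The 2504 are 63.9% of the 3917 limma calls with a unique symbol. The authors' test and this one read the same libraries, so the match is not independent evidence.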

How the data were processed

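The series holds 9 poly-A, directional RNA-seq libraries, per the labels' protocols. The submitters' processing notes name TopHat, Cufflinks, Cuffdiff and mm10; no source used here gives versions, annotation or strand setting. Per the file headers, the authors deposited an FPKM value for each gene in each library, and a table of their own comparisons with group FPKM, a log2 fold, a p-value and a q-value, also deposited by the authors. By its group FPKM, their deposited log2 fold runs KO over Tg; its sign was turned round here. All library columns were matched by name (0 unmatched). An entry without content was not analysed here, and 27 symbols had been turned into dates.

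FPKM was analysed as log2(FPKM + 1), which understates changes of low genes, for genes with a mean of at least 1 FPKM. A gene under 1 FPKM on average in all groups but 1 passed only through that group. Where that group was Fosl2 Tg or labelled Fosl2 KO, the filter set the direction, as for S100a6, Ccl1 and Actr3b. The 9 libraries were fitted together in limma 3.58.1 (R 4.3.3) with a variance trend, no covariate and 6 residual degrees of freedom. Adjusted p-values are Benjamini-Hochberg values over all 10340 tested genes, with a threshold of 0.05. Count models do not apply to FPKM. The depth estimate rests on the step size of values under 0.3 FPKM in 462 genes with transcripts of at least 2000 bases. It assumes that FPKM was scaled to the full transcript length, so depths and fragment counts are approximate. Small RNA genes (183 tested) made up 21.1% to 38.0% of total FPKM. The fit was tested on simulated data.

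The members, the 27 pathway and 7 marker lists and the tests were chosen with earlier results of these data known. Named genes are Fosl2, Foxp3, the 15 higher and 15 lower called genes with the largest differences and no overlap, and, from each list, the called members of lowest adjusted p (at most 4). Predicted genes, pseudogenes, small RNA genes, receptor segments, combined entries and repeated symbols were not named. Of 595 list symbols, 3 were not found. Promoter windows come from RefSeq, build GRCm38.p6, for 7462 tested genes. Same-numbered libraries of the groups deviated together at correlations of 0.283, 0.139 and 0.0388. Between differently numbered libraries the correlations ran from -0.316 to 0.295. The labels give the libraries only a shared number, and the main fit did not treat the numbers as pairs. Counts with replicate number as a block are given below. Some members of the lists are not reported here by name.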

Additional observations from a re-analysis of the deposited data

How the results depend on the processing

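The total, higher and lower counts (3943, 1801 and 2142) stayed within 1.5 times under both other scalings, a pseudocount of 0.1, no filter, the fit of 6 libraries and the fit without small RNA genes. Array weights gave 5826 calls with 3215 lower, and that estimate of weights, from 0.0857 to 18.1, did not converge. Leaving out 1 library at a time gave 2170 to 4100 calls, 1071 to 1871 higher and 1099 to 2229 lower, all lowest without library 2 labelled Fosl2 KO. With replicate number as a block, 4589 genes passed, 2024 higher and 2565 lower; the labels give the libraries only a shared number. Of 2091 results for the 123 named genes under these settings, 2066 kept their direction and side of the threshold, 21 lost it, 4 gained it and 0 reversed. All 4 gains were Fosl2, which passed under the block (limma adjusted p = 0.0324), with array weights (0.0265, at a difference of 0.29), without small RNA genes (0.0439) and without Fosl2 Tg library 2. The causes were not tested. The share called near Fosl2 ran from 42.9% to 45.5% over the windows. Depth limits genes under the filter, where 1 FPKM over 2 kb is 63 fragments in the shallowest library.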
